A study of Mus musculus with 2 samples.

Results

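Small leucine-rich proteoglycans are secreted proteins of the extracellular matrix, built from tandem leucine-rich repeats, and most of them carry chondroitin, dermatan or keratan sulfate chains. They bind fibrillar collagens and influence how wide fibrils grow and how they are spaced, and several hold ligands of the TGF-beta family. In developing organs they are made mainly by fibroblasts and other mesenchymal cells. The genes described here are Aspn, Dcn and Bgn of class I, Lum, Fmod, Prelp, Kera and Omd of class II, and Ogn and Epyc of class III. They are 10 of the 20495 genes measured, and each has 1 probe among the 39429 probes of the array. They were selected on measured values of these arrays, since Aspn had one of the lowest Rbpj-cKO over control ratios and the family was assembled around it. Their ratios are therefore given as a description, with no test.

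Ureters of mouse embryos of the NMRI strain at E14.5 were compared on 2 two-colour arrays, each holding Rbpj-cKO and control RNA together. Rbpj-cKO embryos had the genotype Tbx18(cre/+);Rbpj(fl/fl), and control embryos the genotype Rbpj(fl/?), in which the second Rbpj allele is not named. Rbpj encodes the DNA-binding protein through which Notch receptors act on transcription. The Cre recombinase comes from the Tbx18 locus, which is active in the mesenchyme around the ureteric epithelium, so the epithelium is outside the cells targeted. The Cre allele is listed for Rbpj-cKO embryos and not for control embryos, so its own effect and that of losing Rbpj cannot be told apart. Replicate 1 held RNA of male embryos with Rbpj-cKO in the red dye AlexaFluor647, and replicate 2 RNA of female embryos with Rbpj-cKO in the green dye AlexaFluor555. Sex and dye orientation thus changed together. The number of embryos behind each RNA is not stated. The p-values draw only on the spread between these 2 arrays, that of each gene being moderated by that of all genes. In whole ureters, fewer cells of a type and less RNA per cell cannot be told apart.

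The share of spots well above background was 69.3% in the Rbpj-cKO channel and 70.1% in the control channel of replicate 1, and 68.1% and 67.7% in those of replicate 2. Rbpj had log2 ratios of Rbpj-cKO over control of -1.13 on replicate 1 and -0.63 on replicate 2 at its brighter probe, and -0.48 and -0.37 at the other. Neither probe is tied to the deleted exons by the sources used here. Tbx18 had 0.17 and -0.24. All 8 ureteric mesenchyme markers, all 7 smooth muscle markers and all 8 urothelial markers were measured. The replicates' log2 ratios were negatively related across genes (Pearson r = -0.352, Spearman rho = -0.473, 20495 genes, which are not independent replicates). With limma, 0 of 20495 genes (0%) had an adjusted p under 0.05, and 372 had an unadjusted p under 0.05. Of the other limma settings run, the scanner software's processed signals gave 2 genes, an intensity trend with robust moderation gave 5, and the rest gave 0.

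All 10 proteoglycan genes passed the filter on dim probes, and 8 of them were well above background in every spot of both genotypes on both arrays. The exceptions, Omd and Prelp, were dim on replicate 2. The median of the 10 mean log2 ratios was -0.18, with -0.11 on replicate 1 and -0.30 on replicate 2. Without Aspn the medians were -0.14 over both arrays, -0.07 on replicate 1 and -0.21 on replicate 2. Over all genes the medians were -0.0033, 0.0012 and 0.0046 in the same order. Aspn, Bgn, Epyc, Ogn and Omd, 5 of the 10 genes, were lower in Rbpj-cKO on both arrays, as were 14.7% of all genes. In these 5 both Rbpj-cKO levels also lay below both control levels, as in 8.45% of all genes. Dcn alone was higher in Rbpj-cKO on both arrays, as were 16.1% of all genes, and alone had both Rbpj-cKO levels above both control levels, as did 10.3% of all genes. Fmod, Kera, Lum and Prelp ran in opposite directions on the arrays. Aspn was the 1 gene of the 10 at least 1.5-fold lower on both arrays (0.0634% of all genes), and 0 of the 10 were at least 1.5-fold higher (0.132% of all genes). The 10 genes were chosen through this contrast, so nothing is read from these counts.

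With median centring in place of loess, Bgn and Dcn no longer ran one way on both arrays, Kera and Prelp were then lower on both, and 6 of the 10 genes were lower on both arrays, against 9.83% of all genes. From the processed signals, and likewise in the authors' deposited table, Lum and Prelp joined the genes lower on both arrays, which gave 7 of 10. The shares of all genes were 15.2% in the processed signals and 14.4% in the authors' deposited table. Aspn, Ogn, Omd and Epyc were lower on both arrays in each of these settings.

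**Figure D1:**
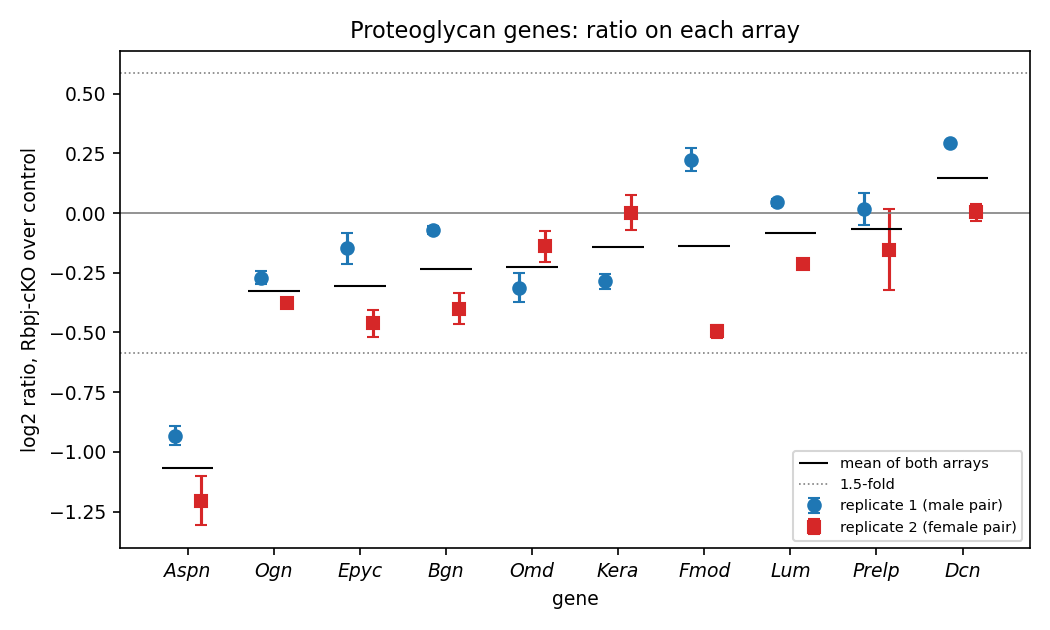
Log2 ratio of Rbpj-cKO over control (vertical axis) of each proteoglycan gene on replicate 1 (circles, male pair) and replicate 2 (squares, female pair), ordered by the mean (black lines). Error bars are the SD over the spots of a probe and the dotted lines mark 1.5-fold. Aspn lies at -0.93 and -1.21, below the lower dotted line on both arrays, and the means of the other 9 genes lie between -0.32 and 0.15.

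Aspn encodes asporin, a class I member with a run of aspartates near its start that binds collagen and ligands of the TGF-beta family. Its probe lies on mm9 chromosome 13, positions 49662479 to 49662538. The normalized log2 intensity was 8.73 on replicate 1 and 8.39 on replicate 2 in Rbpj-cKO ureters, against 9.66 and 9.59 in control ureters. Both Rbpj-cKO values lay below both control values, with a gap of 0.87 between the groups on the log2 scale. Rbpj-cKO over control came to a log2 ratio of -0.93 on replicate 1 and of -1.21 on replicate 2, with a mean of -1.07 ± 0.19 (SD, n = 2). The Rbpj-cKO level was therefore 52.4% of the control level on replicate 1 and 43.4% on replicate 2, or 2.10-fold lower in the mean. The separate spots ran the same way throughout. On replicate 1 the log2 ratios of the 4 spots ranged from -0.98 to -0.88. On replicate 2 the 3 spots used ranged from -1.31 to -1.11, and the spot left out for its outlier flag had -0.94. In the scanner software's processed signals, Aspn had intensities of 116 and 84.0 in Rbpj-cKO, against 248 and 203 in control. In the mean ratio, Aspn was 6th lowest of the 20495 genes, and it was 5th among the 13 genes at least 1.5-fold lower on both arrays. The authors' deposited table lists Aspn at -2.12 on replicate 1 and -2.67 on replicate 2, read as signed fold changes of Rbpj-cKO over control.

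Dcn encodes decorin, which coats collagen fibrils and binds TGF-beta (mm9 chromosome 10, 96980233 to 96980292). Its normalized log2 intensity was 16.88 and 16.63 in Rbpj-cKO, against 16.59 and 16.62 in control. The replicate 1 Rbpj-cKO channel was the high one, and the groups were parted by 0.0031 on the log2 scale. The log2 ratios were 0.29 and 0.0031, a mean of 0.15 ± 0.21 (SD, n = 2). With median centring these ratios became 0.72 and -0.41, so the sign on replicate 2 depended on the scaling.

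Bgn encodes biglycan, the closest relative of decorin, which is also a ligand of the receptors Tlr2 and Tlr4 (mm9 chromosome X, 70738554 to 70738613). Normalized log2 intensities were 9.99 and 9.88 in Rbpj-cKO, against 10.06 and 10.28 in control. The groups were parted by 0.07, and the control channel of replicate 2 stood highest. Its log2 ratios were -0.07 and -0.40, a mean of -0.24 ± 0.23 (SD, n = 2), and with median centring 0.07 and -0.58. The mean ratio of Bgn was close in size to its SD, and that of Dcn was smaller than its SD.

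**Figure D2:**
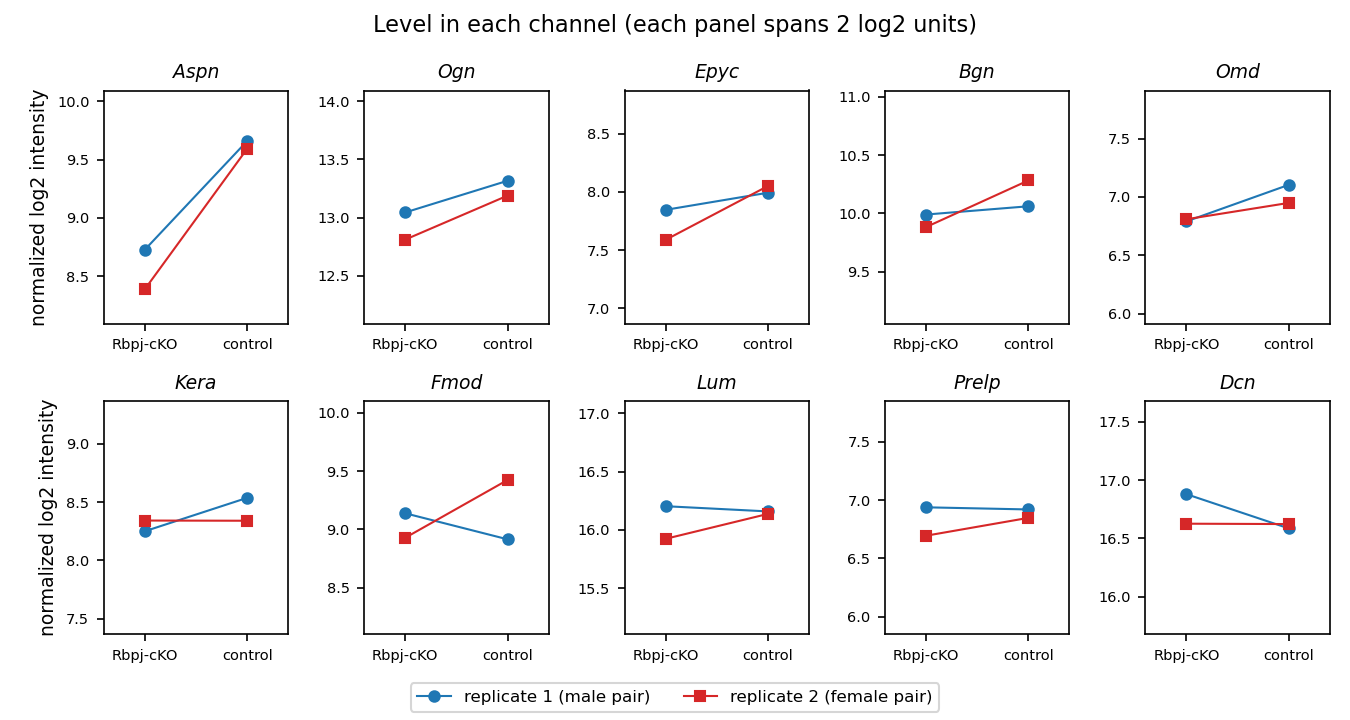
Normalized log2 intensity (vertical axis) of each proteoglycan gene in Rbpj-cKO (left) and control (right), with a line for each array, replicate 1 in circles and replicate 2 in squares. Each panel spans the same range of the log2 scale around its own mean, so slopes can be read across panels and levels cannot. Both lines climb steeply towards control for Aspn, both climb for Ogn, and for Fmod the lines cross.

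Aspn lies beside Omd and Ogn on chromosome 13, and the probes of these genes span 57.1 kb. In the RefSeq table of mouse (GRCm38.p6), Ecm2, Aspn, Omd and Ogn lie in this order inside the interval of Cenpp, a centromere protein gene. The 250 bases before each start site of the 3 neighbours that were lower on both arrays are shown first, and then those of Prelp. Prelp is shown because of the genes matched it was the 1 with the core TGGGAA, or TTCCCA on the other strand, that Rbpj is known to bind. Sequences are from RefSeq with the build GRCm38.p6, 5′ to 3′ on the strand of the gene, at chr13:49544193-49544442 (plus strand) for Aspn, chr13:49582212-49582461 (plus) for Omd, chr13:49607765-49608014 (plus) for Ogn and chr1:133921402-133921651 (minus) for Prelp. Capitals mark TATAAA on the gene's strand and TGGGAA on either strand.
Aspn: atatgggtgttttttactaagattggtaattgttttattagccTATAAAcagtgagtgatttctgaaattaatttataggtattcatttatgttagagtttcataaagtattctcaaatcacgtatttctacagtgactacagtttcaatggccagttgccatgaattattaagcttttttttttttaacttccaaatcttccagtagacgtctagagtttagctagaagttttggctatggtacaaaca
Omd: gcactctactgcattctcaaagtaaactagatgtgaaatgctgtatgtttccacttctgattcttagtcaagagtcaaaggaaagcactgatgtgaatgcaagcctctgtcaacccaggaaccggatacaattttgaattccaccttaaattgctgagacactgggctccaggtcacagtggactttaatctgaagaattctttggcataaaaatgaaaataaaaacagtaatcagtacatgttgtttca
Ogn: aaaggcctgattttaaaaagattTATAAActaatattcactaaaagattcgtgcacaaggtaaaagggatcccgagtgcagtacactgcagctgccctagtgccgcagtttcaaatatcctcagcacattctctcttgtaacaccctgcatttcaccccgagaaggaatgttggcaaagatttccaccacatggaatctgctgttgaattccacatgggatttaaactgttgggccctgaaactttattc
Prelp: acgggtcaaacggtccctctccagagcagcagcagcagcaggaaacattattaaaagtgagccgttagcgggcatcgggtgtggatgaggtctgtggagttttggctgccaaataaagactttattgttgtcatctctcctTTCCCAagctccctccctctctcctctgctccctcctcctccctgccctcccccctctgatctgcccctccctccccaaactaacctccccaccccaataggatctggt
RefSeq promoters were matched for 8 of the 10 genes, with 9 start sites. TATAAA was found before 2 of these start sites, at -207 for Aspn and -227 for Ogn, and occurs on the gene's strand in 7.59% of the 32851 mouse promoters in windows of the same length. TTCCCA was found once, at -109 of Prelp, and this core occurs on either strand in 21.6% of them. A match describes the letters of the window and no more.

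Around Aspn the low ratios were not shared by every neighbour. Omd encodes osteomodulin, a keratan sulfate proteoglycan known from bone (mm9 chromosome 13, 49687847 to 49687906). On the normalized log2 scale its level was 6.79 and 6.81 in Rbpj-cKO, against 7.10 and 6.95 in control. Both Rbpj-cKO values lay below both control values, by 0.14. This gave log2 ratios of -0.31 and -0.14, averaging -0.23 ± 0.12 (SD, n = 2). Omd was close to background, with 3 of 4 Rbpj-cKO spots well above it on replicate 2. Its processed signals were 13.89 and 11.30 in Rbpj-cKO, against 23.17 and 14.46 in control. The ratio of these processed signals was lower, at -0.75 and -0.36 on the log2 scale, a mean of -0.55. The size of its ratio thus depended on the processing.

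Ogn encodes osteoglycin, also called mimecan, a class III member of many connective tissues (mm9 chromosome 13, 49719549 to 49719608). It had normalized log2 intensities of 13.04 and 12.81 in Rbpj-cKO, against 13.32 and 13.19 in control. The groups did not overlap and were parted by 0.14. Rbpj-cKO over control gave log2 ratios of -0.27 and -0.38, averaging -0.32 ± 0.075 (SD, n = 2). The SD between arrays was the lowest among the 10 genes, and the Rbpj-cKO level was 1.21-fold lower than control on replicate 1 and 1.30-fold lower on replicate 2. With median centring the log2 ratios of Ogn were -0.10 and -0.57 (SD 0.33), so the closeness of its arrays depended on the scaling.

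On the other side of Aspn, the probe of Ecm2, a further leucine-rich repeat gene, lay at -34.4 kb from that of Aspn (negative towards lower coordinates) and had log2 ratios of 0.13 and 0.23. The Cenpp probe at -6.89 kb had 0.07 and 0.0006, and the Cenpp probe at -102 kb had -0.35 and 0.31. Beyond Ogn, Nol8 had -0.24 and 0.22 and Iars -0.13 and 0.08, while Ippk had 0.0005 and -0.06 and Bicd2 -0.16 and 0.18. At the ends of the window, the predicted gene Gm30302 at 218 kb had -0.11 and -0.16, and a probe of Fgd3 at -290 kb had 0.07 and -0.15. Aspn, Omd, Ogn and Gm30302 were thus lower on both arrays and Ecm2 higher on both. The near Cenpp probe lay close to 0, and the other probes named ran opposite ways. Ecm2 was nearly as dim as Omd, with normalized log2 intensities of 7.08 and 7.16 in Rbpj-cKO, against 6.96 and 6.93 in control. So was the near Cenpp probe, with 7.14 and 7.13 in Rbpj-cKO, against 7.07 and 7.13 in control. Every spot of both was well above background, but the sizes of their ratios are limited by the low signal.

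**Figure D3:**
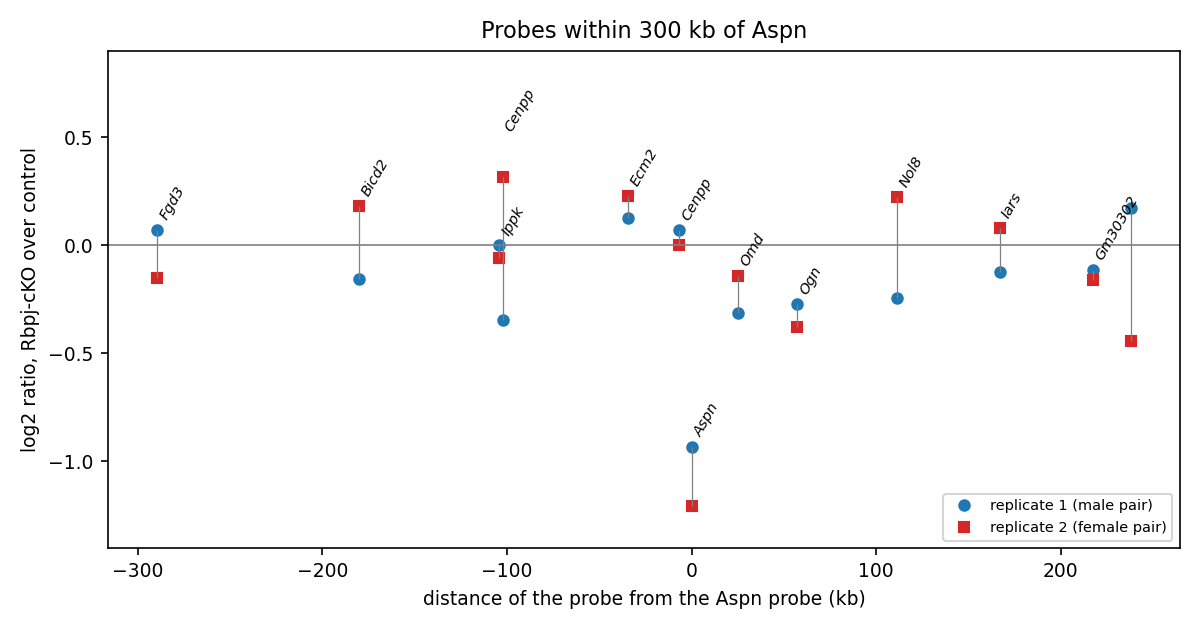
Log2 ratio of Rbpj-cKO over control (vertical axis) on replicate 1 (circles) and replicate 2 (squares) for probes past the filter, against the distance of each from the Aspn probe in kb (horizontal axis). Aspn at -0.93 and -1.21 stands below its neighbours, Omd and Ogn lie moderately below 0, Gm30302 lies slightly below 0 and Ecm2 lies above 0. The unlabelled probe at the right is a transcript without a gene symbol.

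Among the other class II genes, the ratios of both arrays did not run one way. Lum encodes lumican, a keratan sulfate proteoglycan that orders collagen fibrils in the cornea and skin (mm9 chromosome 10, 97035210 to 97035269). Its normalized log2 intensity was 16.20 and 15.92 in Rbpj-cKO, against 16.16 and 16.14 in control. The Rbpj-cKO value of replicate 2 was the low one and the groups overlapped. The log2 ratios were 0.04 and -0.21, a mean of -0.08 ± 0.18 (SD, n = 2). The spot SD of Lum was 0.015 on replicate 1 and 0.013 on replicate 2, so the arrays differed by more than the spots did.

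Fmod encodes fibromodulin, which acts on collagen fibrils in tendon and is a close relative of lumican (mm9 chromosome 1, 135943998 to 135944057). Normalized log2 intensities were 9.14 and 8.93 in Rbpj-cKO, against 8.91 and 9.42 in control. The groups overlapped, with control both lowest and highest. Its log2 ratios were 0.22 and -0.50, a mean of -0.14 ± 0.51 (SD, n = 2), the widest SD among the 10 genes. Skeletal muscle markers ran the same way, with ratios above 0 on replicate 1 and below 0 on replicate 2 for all 11 measured. Their median log2 ratios were 0.43 on replicate 1 and -0.94 on replicate 2. Their summed linear level was 66603 on replicate 1 and 41348 on replicate 2 in Rbpj-cKO, against 44026 and 84973 in control. Among the 12 listed, the muscle regulator Myf5 did not pass the filter. Opposite signs were not particular to skeletal muscle markers, since only 14.7% of all genes were lower on both arrays and 16.1% higher on both. Smooth muscle markers had median log2 ratios of 0.19 and -0.34, with 4 of 7 running opposite ways. Erythroid markers had medians of 0.60 and -0.79, with 8 of 9 running opposite ways. The part of muscle tissue in the ratios of Fmod was not tested.

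Prelp encodes a protein that ties basement membranes to connective tissue (mm9 chromosome 1, 135806855 to 135806914). On the normalized log2 scale its level was 6.94 and 6.70 in Rbpj-cKO, against 6.92 and 6.85 in control, and the groups overlapped. This gave log2 ratios of 0.02 and -0.15, averaging -0.07 ± 0.12 (SD, n = 2). On replicate 2 only 2 of 4 spots were well above background in each genotype, and the mean from processed signals was -0.24.

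Kera encodes keratocan, a keratan sulfate proteoglycan best known from the cornea (mm9 chromosome 10, 97076230 to 97076289). It had normalized log2 intensities of 8.25 and 8.34 in Rbpj-cKO, against 8.54 and 8.34 in control. The control value of replicate 1 stood above the other 3 values, and the groups overlapped. Rbpj-cKO over control gave log2 ratios of -0.29 and 0.0017, averaging -0.14 ± 0.20 (SD, n = 2).

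The class III gene Epyc encodes epiphycan, a dermatan sulfate proteoglycan of growth cartilage (mm9 chromosome 10, 97143965 to 97144024). Its normalized log2 intensity was 7.85 and 7.59 in Rbpj-cKO, against 7.99 and 8.05 in control. Both Rbpj-cKO values lay below both control values, by 0.15. The log2 ratios were -0.15 and -0.46, a mean of -0.30 ± 0.22 (SD, n = 2). Cartilage markers, of which Matn1 and Matn3 did not pass the filter, were lower on both arrays for 4 of the 10 measured, higher on both for 1 and opposite for 5. Col2a1, the main collagen of cartilage, had -0.42 and -0.48, and Col9a1, a collagen on the surface of those fibrils, -0.29 and -0.48. By limma 0 cartilage markers passed the test, and these 2 had an unadjusted p under 0.05. The summed linear level of the 10 markers was 87635 and 81415 in Rbpj-cKO, against 84787 and 86768 in control. Most of this sum came from the brightest probe of Sox5. Its normalized log2 intensity was 15.97 and 15.87 in Rbpj-cKO, against 15.78 and 15.84 in control. The other Sox5 probes did not pass the filter, and the sum says little about the other cartilage markers. The part of cartilage cells in the ratios of Epyc was not tested.

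Dcn, Lum, Kera and Epyc are neighbours on chromosome 10, where their probes span 164 kb, and Prelp and Fmod lie 137 kb apart on chromosome 1. On chromosome 10 the mean log2 ratios were 0.15, -0.08, -0.14 and -0.30 in this order along the chromosome, with ratios of opposite sign on the arrays for Lum and Kera. Optc, which neighbours Prelp and encodes opticin, a member known from the eye, stood at 0.32 and 0.42 (log2 ratio), which average to 0.37 ± 0.070 (SD, n = 2, limma adjusted p = 1). Of the genes listed around the 3 clusters, 11 of 14 were measured. At their brightest probes, Btg1 was higher on both arrays, by 0.02 on the log2 scale on each, and the other 10 ran opposite ways. Outside the window around Aspn, these were Atp2b1 (0.0033 and -0.25), Atp2b4 (0.23 and -0.05), Plxnc1 (-0.06 and 0.02) and Btg2 (-0.05 and 0.07). The other probes of Atp2b4 were lower on both arrays (-0.12 and -0.06, -0.0028 and -0.09). The brightest Fgd3 probe had -0.17 and 0.14, and the median log2 ratio of the 11 was -0.015. With limma, 0 of the 11 passed the test, and 0 had an unadjusted p under 0.05.

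In the order of mean log2 ratios, running Aspn, Ogn, Epyc, Bgn, Omd, Kera, Fmod, Lum, Prelp and Dcn, 7 of the 9 steps between neighbours were smaller than the larger SD of the pair. The step from Aspn to Ogn was 0.74 and that from Prelp to Dcn 0.22. Aspn was chosen for its low ratio, so nothing is read from the size of its step. The ratio was lower on replicate 2 than on replicate 1 for 8 of the 10 genes, with Kera and Omd the exceptions. The matching share of all genes was not computed, so nothing is read from this count. The median difference of the 10 genes, replicate 1 minus replicate 2, was 0.27 on the log2 scale. Sex and dye orientation cannot be told apart in that difference.

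The genes nearest to Aspn were taken as those with the smallest Euclidean distance over both log2 ratios, which is a likeness over 2 arrays only. They were Pi4k2b, a lipid kinase gene, at a distance of 0.26 (log2 ratios -1.07 and -0.98), Shisa2, a regulator of Wnt and FGF receptors, at 0.297 (-0.87 and -0.91), and Myocd, the coactivator of smooth muscle genes, at 0.31 (-0.67 and -1.04). Car3, a carbonic anhydrase gene, followed at 0.321 (-0.83 and -1.51), and then Mdfi, an inhibitor of myogenic transcription factors, at 0.348 (-1.28 and -1.24). None of the other 9 proteoglycan genes was among them. Pi4k2b lies on chromosome 5, as does the engineered Rbpj locus, and the distance between these genes was not examined here.

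**Figure D4:**
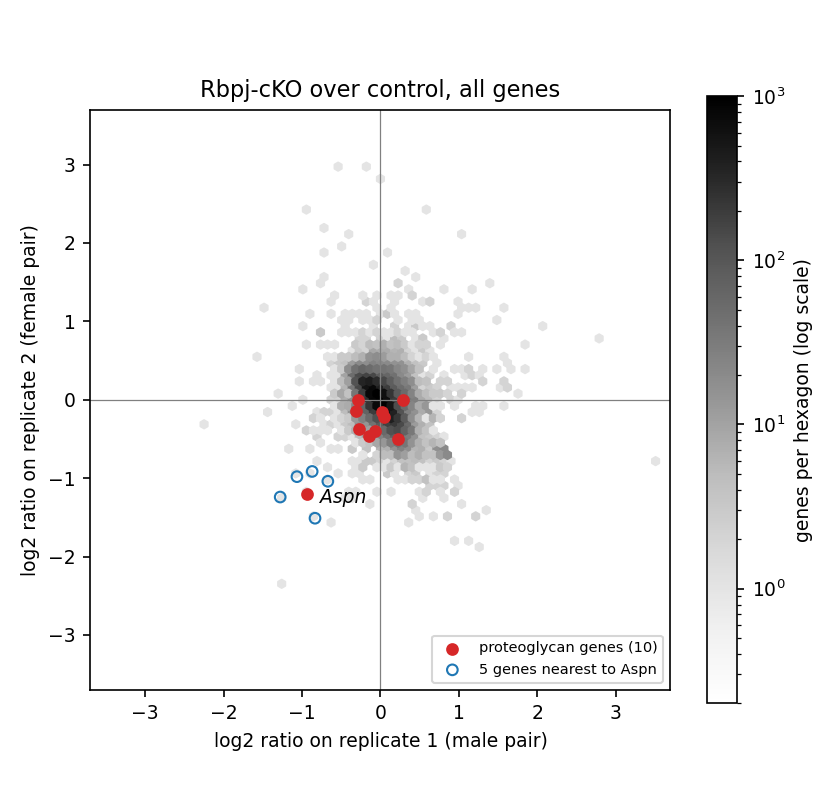
Log2 ratio of Rbpj-cKO over control on replicate 2 (vertical axis) against that on replicate 1 (horizontal axis) for 20495 genes, shaded by the number of genes per hexagon on a log scale. Filled red points are the 10 proteoglycan genes and open blue circles the 5 genes nearest to Aspn. Aspn lies apart from the other 9 at the lower left, and these lie in or beside the dense cloud, which slopes downwards (r = -0.352).

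Of the other family genes, 7 of 8 were measured, Nyx being the exception. Ecm2 and Optc were higher on both arrays, Podn and Tsku lower on both, with means of -0.07 and -0.09, and 3 ran opposite ways. Those were Podnl1, Chad and Chadl, with mean log2 ratios of 0.07, -0.06 and 0.0022. The median of the 7 was 0.0022, 0 passed limma's test and 1, Optc, had an unadjusted p under 0.05.

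Enzymes that build the chains of these proteoglycans had a median ratio close to that of all genes. Of 30 measured among 32, 5 were lower on both arrays, 6 higher and 19 opposite, with a median log2 ratio of 0.0049. By limma 0 passed the test, and 0 had an unadjusted p under 0.05. B4galt7, which adds the first galactose of the linkage to the core protein, had 0.08 and 0.30, with -0.03 and 0.17 at its other probe. Chsy3, a chondroitin synthase, had -0.06 and -0.28, B3gat3, which completes the linkage, 0.28 and -0.73, and Chst3, a chondroitin sulfotransferase, 0.09 and 0.15.

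Of proteases that cleave these proteoglycans or procollagen, 9 of 12 were measured, 0 were lower on both arrays, 3 higher and 6 opposite. Their median log2 ratio was 0.0059, 0 passed limma's test and 1, Adamts4, had an unadjusted p under 0.05. Adamts4, an aggrecanase, had 0.18 and 0.54, but -0.03 and -0.13 at its other probe. Adamts5, its relative, had 0.07 and 0.29. The matrix metalloproteases Mmp2 and Mmp14 had 0.07 and -0.25, and 0.46 and -0.65.

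Fibrillar collagens and their partners, all 18 measured, were lower on both arrays in 3 cases, higher in 2 and opposite in 13, with a median log2 ratio of -0.0086. Of these 18 genes 0 passed limma's test and 2, Dpt and Col2a1, had an unadjusted p under 0.05. Dpt encodes dermatopontin, a small matrix protein that binds decorin. It had normalized log2 intensities of 7.87 and 7.75 in Rbpj-cKO, against 8.22 and 8.55 in control, with no overlap. Its log2 ratios were -0.35 and -0.80 (mean -0.58 ± 0.32, SD, n = 2, limma adjusted p = 1). Col12a1 had 0.06 and 0.21, and Col11a1 -0.34 and 0.05.

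Ligands and receptors of TGF-beta and the toll-like receptors bound by biglycan, 10 of 10 measured, were lower on both arrays in 2 cases, higher in 3 and opposite in 5. The median log2 ratio was 0.02, and with limma 0 passed the test or had an unadjusted p under 0.05. Tlr2 had 0.07 and 0.37, Tlr4 0.24 and 0.14, the TGF-beta co-receptor gene Tgfbr3 -0.16 and -0.21, and Bmp4 0.27 and 0.06.

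Markers of cells known to make Aspn were set beside its ratios. Of the tendon markers, 4 of 5 were measured. Tnmd, which marks mature tendon cells, did not pass the filter, since its spots were well above background (4 of 4) in the control channel of replicate 2 alone. Its normalized log2 intensity was 6.26 and 6.43 in Rbpj-cKO, against 6.42 and 8.75 in control. Because 3 of these 4 values were not above background, no ratio is given for Tnmd. Thbs4, a matrix protein of tendon, had log2 ratios of -0.41 and -1.26, and Scx, the tendon transcription factor, -0.62 and -0.28. Mkx (0.14 and -0.23) and Tnc (0.29 and -0.05) ran opposite ways, and the other probe of Tnc was higher on both arrays (0.18 and 0.24). The summed linear level of the 4 was 2589 on replicate 1 and 3484 on replicate 2 in Rbpj-cKO, against 3555 and 4525 in control. Of the fibroblast and adventitia markers, 7 of 7 were measured, 3 lower on both arrays, 1 higher and 3 opposite, with a median log2 ratio of -0.16. Their summed linear level was 89583 and 80736 in Rbpj-cKO, against 95726 and 95512 in control. Pdgfra, a receptor of mesenchymal fibroblasts, had -0.20 and -0.55. Pi16, the marker higher on both arrays, had 0.53 and 0.02, and Twist2 ran opposite ways with 0.11 and -0.60. Of the bone and perichondrium markers, 5 of 6 were measured, Runx2 not passing the filter, and 3 were lower on both arrays and 2 opposite. Their summed linear level was 2000 and 1699 in Rbpj-cKO, against 1862 and 1893 in control. The part of such cells in the ratio of Aspn was not tested, and 0 of these markers passed limma's test. An unadjusted p under 0.05 was found for 2 tendon markers (Thbs4 and Scx), 2 fibroblast markers (Dpt and Pdgfra) and 0 bone markers.

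The means over both arrays kept their signs in every setting in which a gene was measured. With exchanged dyes, a shift between the dyes largely cancels in these means, so kept signs say little. Signs on single arrays did change, as with median centring for Dcn (0.72 and -0.41) and Bgn (0.07 and -0.58). Aspn ranged from -1.25, from processed signals, to -1.04, with outlier-flagged spots kept. The authors' deposited table gave mean log2 values of -1.25 for Aspn, -0.53 for Omd and -0.23 for Prelp.

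**Figure D5:**
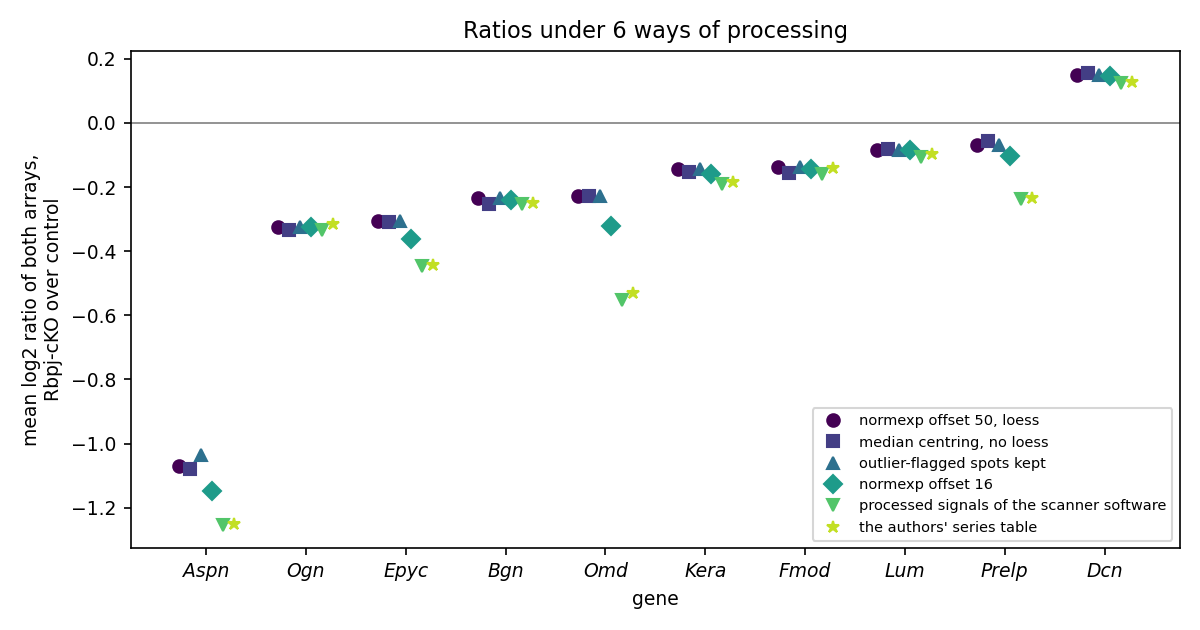
Mean log2 ratio of Rbpj-cKO over control of both arrays (vertical axis) for each proteoglycan gene under 6 ways of processing. Every mean of Aspn lies at or below -1.04, Dcn lies above 0 in all 6, and Omd and Prelp lie lower in processed signals and in the authors' table than in the other settings.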

How the data were processed

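RNA of Rbpj-cKO and control ureters was hybridised to 2 Agilent arrays with exchanged dyes. Mean and background median intensities per spot and channel are linear and not normalized, per the file headers. Processed intensities were deposited after background subtraction and dye normalization, with the log10 ratio of red over green made from them, per the file headers. Other deposited columns are flags of 0 or 1. Agilent Feature Extraction 10.7.3.1 is named in the submitters' processing notes. The authors' deposited table, whose method the sources used here do not name, holds a score per probe. It has no value between -1 and 1 and correlates with processed Rbpj-cKO over control ratios (r = 0.782 and 0.849 across probes), so it was read as a signed fold change.

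Background was corrected with normexp (offset 50) and ratios with loess in limma 3.58.1 under R 4.3.3. Control spots (17263) and outlier-flagged spots (3.57% and 3.90%) were left out, and no spot was saturated. The 4 spots of a probe were averaged. A probe was kept where, on each array, at least 2 spots of 1 channel or more were well above background (26980 probes), and the brightest probe stood for a gene. Of the 39429 probes, 28328 were named through their accession and 3400 through their symbol in the RefSeq table, and 7701 kept the file's name. Replicate 2 was multiplied by -1. The mean log2 ratio of a gene was set against 0 (limma, two-sided, Benjamini-Hochberg over all genes, 1 residual degree of freedom), in a procedure tested on simulated data. The number of arrays limits the precision. Summed levels are sums of 2 to the power of the normalized log2 intensity.

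The genes and lists were chosen with earlier results of these data known. Named are all 10 genes, Rbpj, Tbx18, measured family genes and the listed neighbours, up to 4 genes with the smallest limma p of other lists, at least 1.5-fold members of marker lists and the 5 genes nearest to Aspn. Myf5, Matn1, Matn3, Tnmd, Runx2, Gm30302, Mkx, Tnc and Cd68 were named after their values were seen.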

Additional observations from a re-analysis of the deposited data

Results flagged for a closer look

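The ratios of Fmod and Lum lay on opposite sides of 0 in the male and the female pair. The log2 ratio of Rbpj-cKO over control of Fmod was 0.22 in the male pair and -0.50 in the female pair, a difference of 0.72. That of Lum was 0.04 and -0.21, a difference of 0.26. With 1 array for each sex neither difference was tested, and sex and dye orientation cannot be told apart. In processed signals Lum was below 0 on both arrays, at -0.03 and -0.19, and with median centring it had 0.43 and -0.59. Its opposite signs and the size of its difference thus depended on the processing.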

How the results depend on the processing

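The 40 genes past 1.5-fold in 1 direction on both arrays became 88 from processed signals and 85 in the authors' deposited table, and counts on the array left when a replicate was left out ranged from 359 to 614. Genes with an adjusted p under 0.05 numbered 0 in the limma test reported, 2 from processed signals and 5 with trend and robust moderation. The remaining limma settings gave 0, and the cause of these differences was not tested. The ratio of Aspn kept its sign in the 5 settings that changed its value, and 3 others could not change it. On single arrays it ranged from -1.21 to -0.93. Without replicate 2, Fmod, Lum and Prelp stood above 0 (0.22, 0.04 and 0.02), and without replicate 1 Kera did (0.0017). Of 41 values of proteoglycan genes that another setting changed, 37 moved by less than the SD between arrays, and the 4 others were Omd and Prelp in processed signals and in the authors' table. Both were dropped by the filter that asked for every spot above background. Of 70 list medians, 6 moved. That of the proteases (0.0059) was 0.073 without replicate 1, 0.066 without replicate 2, 0.012 with no filter and -0.0023 in processed signals. Without replicate 1 it was -0.06 for the other family genes and -0.05 for chain synthesis. No separate replicate block was fitted, since the test on within-array ratios is itself paired. Dim probes limit the sizes given for Omd and Prelp, and for Ecm2 and the near Cenpp probe.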

Other observations

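Markers of nerve and glia were higher in Rbpj-cKO on both arrays for 8 of the 8 measured, against 16.1% of all genes, with median log2 ratios of 1.09 on replicate 1 and 0.74 on replicate 2, and 4 of them were at least 1.5-fold higher on both, against 0.132% of all genes. These were the granin genes Chga (2.11 and 0.95) and Chgb (2.83 and 0.77), Dbh, which makes noradrenaline (1.83 and 0.70), and Phox2a, an autonomic neuron transcription factor (0.64 and 1.26). Macrophage markers were higher on both arrays for 4 of 5 at their brightest probes, with medians of 0.46 and 0.04. Other probes ran opposite ways for Csf1r (0.32 and -0.29, 0.24 and -0.17), Cx3cr1 (0.41 and -0.22) and Cd68 (0.20 and -0.17). A further probe of Cx3cr1 (0.61 and 0.15) and the other probe of Adgre1 (0.28 and 0.18) were higher on both arrays. Erythroid markers ran opposite ways for 8 of 9, with medians of 0.60 and -0.79. With limma 0 of these markers passed the test, and 6 nerve and glia, 1 macrophage and 1 erythroid marker had an unadjusted p under 0.05, as had 372 of the 20495 genes.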
